A study of Rattus norvegicus with 40 samples.

Results

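The sinusoidal endothelial and stellate cell markers of rat liver described here are 10 genes chosen by symbol, 5 of endothelial cells (Flt4, Tek, Kdr, Pecam1, Lyve1) and 5 of stellate cells or the matrix they lay down (Col1a1, Col3a1, Dcn, Des, Lrat). They are 10 of 13438 genes measured and are read by 13 of 31139 probe sets, since Kdr, Lyve1 and Col1a1 each have a second one. Transcript levels were measured in livers of adult male Sprague Dawley SD:CD rats that were dosed by gavage for 4 days and killed 24 h after the last dose. The 4 groups of 10 rats received the vehicle alone or 0.1, 1 or 10 mg/kg of GW7647 per day. GW7647 is a synthetic agonist of PPAR-alpha, the nuclear receptor that switches on genes of fatty acid breakdown in hepatocytes. Each liver gave total RNA for 1 array, the rats carried no transgene or deletion that the labels name, and the 3 doses share 1 vehicle group.

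Liver sinusoids are lined by a fenestrated endothelium that has little basement membrane and clears hyaluronan, collagen fragments and immune complexes from blood. Its cells are maintained by vascular endothelial growth factors (VEGF), acting on the receptor tyrosine kinases encoded by Flt1, Kdr and Flt4, and by angiopoietins acting on the receptor encoded by Tek. Hepatic stellate cells lie between this endothelium and the hepatocytes, store vitamin A as retinyl esters, and make fibrillar collagen when they become activated.

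Expression values are log2 units per probe set as the authors deposited them. A change is the difference of 2 group means in limma, with p-values adjusted over all 13438 genes and a threshold of 0.05. The deposited scale itself differed between groups: the median change of all genes was -0.03 at 0.1, 0.16 at 1 and 0.26 at 10 mg/kg. Each member was therefore read again after quantile normalization of the 40 arrays, where those medians were 0.00, -0.01 and -0.02, and "rose" or "fell" is used only of members past the threshold in 1 direction on both scales. As a check of the dose labels, 6 known PPAR-alpha targets (Acot1, Acot2, Cyp4a1, Ehhadh, Pdk4, Cpt1b) were measured, and all rose at 1 and 10 mg/kg. Within groups, arrays correlated at 0.966 or more over probe sets, and none were identical. In the 0.1 mg/kg group 2 arrays had a low upper quartile, and changes of a member's call without them are given beside that member. The labels name separate rats, and whole liver RNA cannot tell fewer cells of a type from less RNA per cell.

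The 3 receptor kinases among the members fell, while Pecam1 and Lyve1 of the same endothelium were not called. At 1 mg/kg, Flt4, Tek and Kdr fell, which is 3 of 10 members beside 3.37% of all genes that were lower on both scales. At 10 mg/kg these 3 and the stellate cell filament gene Des fell, 4 of 10 members beside 7.69% of all genes. The matrix gene Col1a1 was the 1 member of 10 that rose at 10 mg/kg, beside 20.4% of all genes, and 0 members rose at 1 mg/kg, beside 11.1%; at an unadjusted p under 0.05 limma gave 1, Col3a1. At 0.1 mg/kg, limma called 0 of 10 members on either scale, beside 0.0967% of all genes, and 0 had an unadjusted p under 0.05. On the deposited scale alone 5 members passed at 1 mg/kg, beside 41.6% of genes, and 7 at 10 mg/kg, beside 64.2%. There, 4 passed from 0.1 to 1 mg/kg (48.4% of genes), 3 from 1 to 10 mg/kg (30.6%) and 7 in the F test over the 3 doses (71.0%).

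**Figure D1:**
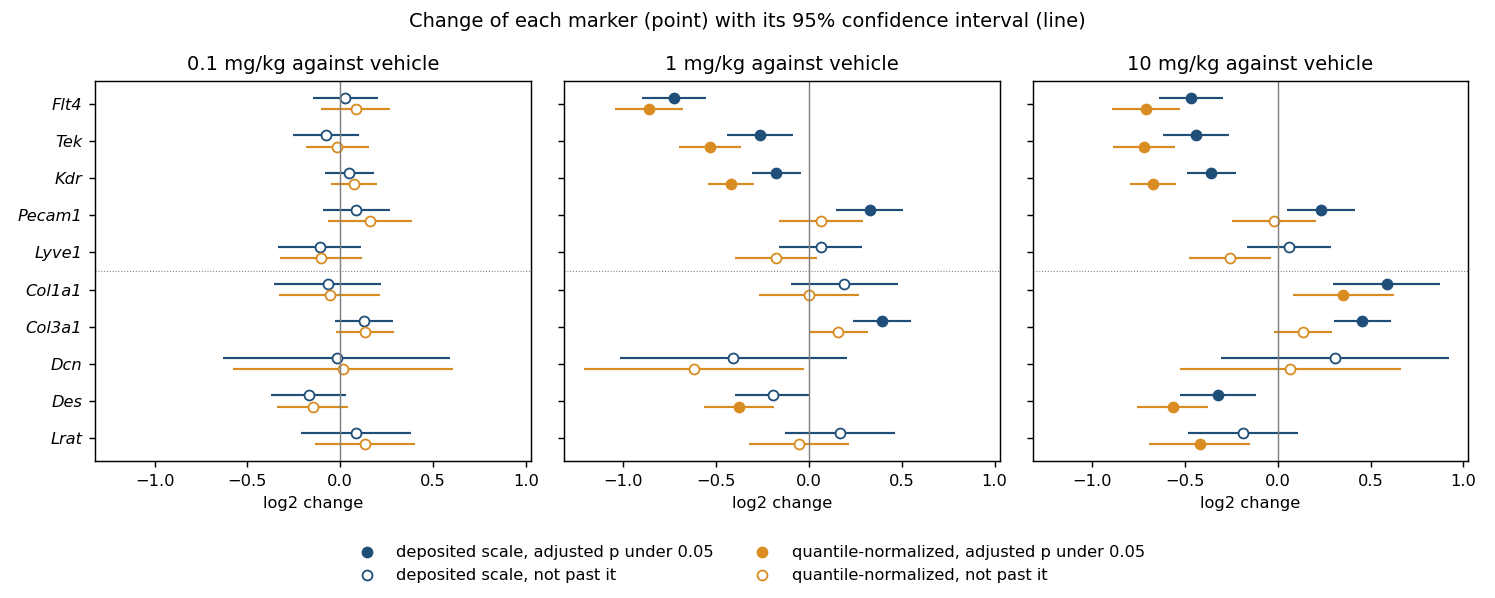
Log2 change of each of the 10 genes against vehicle (x axis) at 0.1, 1 and 10 mg/kg, as points with 95% confidence intervals, on the deposited scale (blue) and after quantile normalization (orange), filled where the adjusted p was under 0.05. Flt4, Tek and Kdr lie left of 0 with filled points on both scales at 1 and 10 mg/kg, and no point is filled at 0.1 mg/kg.

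RefSeq promoter windows of build GRCr8 were matched by symbol for 5 of the 10 members (Flt4, Kdr, Lyve1, Des and Lrat), and the 250 bases before the annotated gene start are used. Those of Kdr and Flt4 are shown because both genes fell together, and that of Lyve1 because it is an endothelial member that was not called. Kdr is read at chr14:32571813-32572062 on the plus strand, Flt4 at chr10:34414584-34414833 on the plus strand, and Lyve1 at chr1:174410978-174411227 on the minus strand. Capitals mark GGAA or its reverse complement TTCC, the core letters of sites for ETS factors, a family used at many endothelial promoters.
Kdr: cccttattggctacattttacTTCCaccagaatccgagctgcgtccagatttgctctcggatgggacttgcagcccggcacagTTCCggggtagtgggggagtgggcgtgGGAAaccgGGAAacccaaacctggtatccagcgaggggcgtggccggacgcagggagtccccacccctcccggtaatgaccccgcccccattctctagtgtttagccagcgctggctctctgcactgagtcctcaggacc
Flt4: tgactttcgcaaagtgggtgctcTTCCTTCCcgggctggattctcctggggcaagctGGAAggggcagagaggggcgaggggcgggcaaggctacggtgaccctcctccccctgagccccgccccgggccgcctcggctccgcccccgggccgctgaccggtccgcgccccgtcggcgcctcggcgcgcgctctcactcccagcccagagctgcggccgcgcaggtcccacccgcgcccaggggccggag
Lyve1: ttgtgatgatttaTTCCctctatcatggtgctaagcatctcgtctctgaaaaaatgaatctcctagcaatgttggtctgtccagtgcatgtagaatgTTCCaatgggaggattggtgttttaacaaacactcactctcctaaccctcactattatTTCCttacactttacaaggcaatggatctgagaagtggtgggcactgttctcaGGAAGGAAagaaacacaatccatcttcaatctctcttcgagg

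GGAA was counted on both strands 4 times in the Kdr window, 3 times in that of Flt4 and 5 times in that of Lyve1, while 93.2% of 33469 rat windows of this length hold it and the median is 3. GGGCGG, the GC box, had 1 match in the window of Kdr, 3 in that of Flt4 and 0 in that of Lyve1 on both strands, beside 30.5% of all windows that hold it. The windows of Kdr and Flt4 were 61.6% and 76.0% G or C and that of Lyve1 was 41.6%, beside a median of 51.2%. The window of Des, which fell at the top dose, was 68.8% G or C, with 1 GGAA and 3 GGGCGG. That of Lrat, which was not called, was 59.2% G or C, with 0 GGAA and 1 GGGCGG. Windows above the median G or C share thus include that of a member that was not called. AGGTCA, the half-site of nuclear receptors (14.1% of windows, both strands), and DR1, its direct repeat with any single base between the copies, also counted under AGGTCA (0.0508%), had 0 matches in all 5 members' windows. These letter counts describe the windows only.

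Kdr encodes the main signalling receptor for VEGF-A and is a defining gene of vascular endothelium. On vehicle arrays Kdr lay between 7.65 and 8.06 with a median of 7.85 (mean 7.85 ± 0.12, SD, n = 10), at the 93.5th percentile of all probe sets. At 0.1 mg/kg the lowest, median and highest values were 7.61, 7.93 and 8.13. At 1 mg/kg they were 7.26, 7.68 and 7.87, and at 10 mg/kg 7.31, 7.51 and 7.62. All 10 rats at the top dose lay below the lowest vehicle rat, on both scales, so the groups did not overlap; 0.945% of all genes were separated downwards in this way. Kdr fell by 0.36 at 10 mg/kg on the deposited scale (SE 0.06, limma adjusted p = 1.04e-05), which is 78.1% of the vehicle level, and by 0.67 after quantile normalization (adjusted p = 7.65e-12), or 62.7%.

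Kdr fell at both steps between the 3 doses, though its upper step is close to the threshold. From 0.1 to 1 mg/kg it fell by 0.22 (adjusted p = 0.00445) and after quantile normalization by 0.50 (adjusted p = 1.05e-07); Flt4 was the other member called in that step, and the 2 of 10 stand beside 2.95% of all genes lower on both scales. From 1 to 10 mg/kg it fell by 0.18 (adjusted p = 0.0299) and by 0.25 (adjusted p = 0.00278), 1 of 10 members beside 5.98% of genes. The call in the upper step held in 11 of 17 alternatives and was lost on the deposited scale without any 1 of 6 arrays (1 mg/kg replicates 1, 2, 7 and 8 and 10 mg/kg replicates 2 and 3), with adjusted p up to 0.0627. Against vehicle, the change at 1 mg/kg was -0.18 (SE 0.06, adjusted p = 0.027) on the deposited scale and -0.42 (adjusted p = 2.38e-06) after quantile normalization. The deposited-scale call at 1 mg/kg needs single rats: without vehicle replicate 3 the change was -0.15 (adjusted p = 0.0596), and without 1 mg/kg replicate 10, the lowest of its group, -0.13 (adjusted p = 0.076). A second Kdr probe set was dim on every array, at the 27.7th percentile with a vehicle mean of 1.95, and did not fall: its change at 10 mg/kg was 0.44 (adjusted p = 0.000173) on the deposited scale and 0.19 (adjusted p = 0.112) after quantile normalization.

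Flt4 encodes the receptor for VEGF-C and VEGF-D, which is best known from lymphatic vessels and is also made by liver sinusoidal endothelium. Vehicle rats gave 2.80, 3.28 and 3.59 as lowest, median and highest value (mean 3.26 ± 0.21, SD, n = 10), and rats at 0.1 mg/kg gave 3.08, 3.31 and 3.49. The 1 mg/kg rats gave 2.41, 2.54 and 2.66, so all 10 lay below every vehicle rat on both scales, which 0.127% of all genes did downwards. At 10 mg/kg the values ran from 2.47 over a median of 2.74 to 3.28, and 5 of 10 rats lay below the lowest vehicle rat. The fall from vehicle was 0.73 at 1 mg/kg (SE 0.09, limma adjusted p = 1.19e-08) and 0.47 at 10 mg/kg (SE 0.09, adjusted p = 1.33e-05), and after quantile normalization 0.86 and 0.71 (adjusted p = 2.47e-09 and 3.14e-08). Flt4 was thus lowest at the middle dose; the step from 1 to 10 mg/kg was 0.26 on the deposited scale (adjusted p = 0.0179) and 0.15 after quantile normalization (adjusted p = 0.267), so it is not called on both. These are low levels: the mean of the vehicle group sat at the 62.0th percentile of probe sets and that of the 1 mg/kg group at the 48.7th. GCRMA values there lie close to background, and how this affects the size of the fall was not tested.

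Tek encodes the angiopoietin receptor TIE2 of vascular endothelium. Its lowest, median and highest values were 5.21, 5.51 and 5.86 on vehicle arrays (mean 5.55 ± 0.17, SD, n = 10) and 5.03, 5.48 and 5.86 at 0.1 mg/kg. They were 5.08, 5.27 and 5.55 at 1 mg/kg, while the 10 mg/kg rats gave 4.70, 5.15 and 5.45. The groups overlapped at every dose, with 4 of 10 rats below the vehicle range at 1 mg/kg and 8 of 10 at 10 mg/kg. Tek fell by 0.26 at 1 mg/kg (SE 0.09, limma adjusted p = 0.0158) and by 0.44 at 10 mg/kg (SE 0.09, adjusted p = 4.39e-05). After quantile normalization it fell by 0.53 and 0.72 (adjusted p = 8.16e-06 and 3.6e-09). The steps from 0.1 to 1 mg/kg (-0.18, adjusted p = 0.0817) and from 1 to 10 mg/kg (-0.18, adjusted p = 0.12) did not pass on the deposited scale. After quantile normalization the step from 0.1 to 1 mg/kg was -0.52 (adjusted p = 1.46e-05; 8 of 10 rats below the lowest 0.1 mg/kg rat) and that from 1 to 10 mg/kg -0.19 (adjusted p = 0.116). Without the 2 arrays of low upper quartile the lower step was past the threshold on both scales (-0.25, adjusted p = 0.022, and -0.50, adjusted p = 9.26e-05). It also passed on both without 0.1 mg/kg replicate 8 alone or without 1 mg/kg replicate 1 or 2. With all arrays Tek is not called on both scales in this step, and that depends on single arrays.

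**Figure D2:**
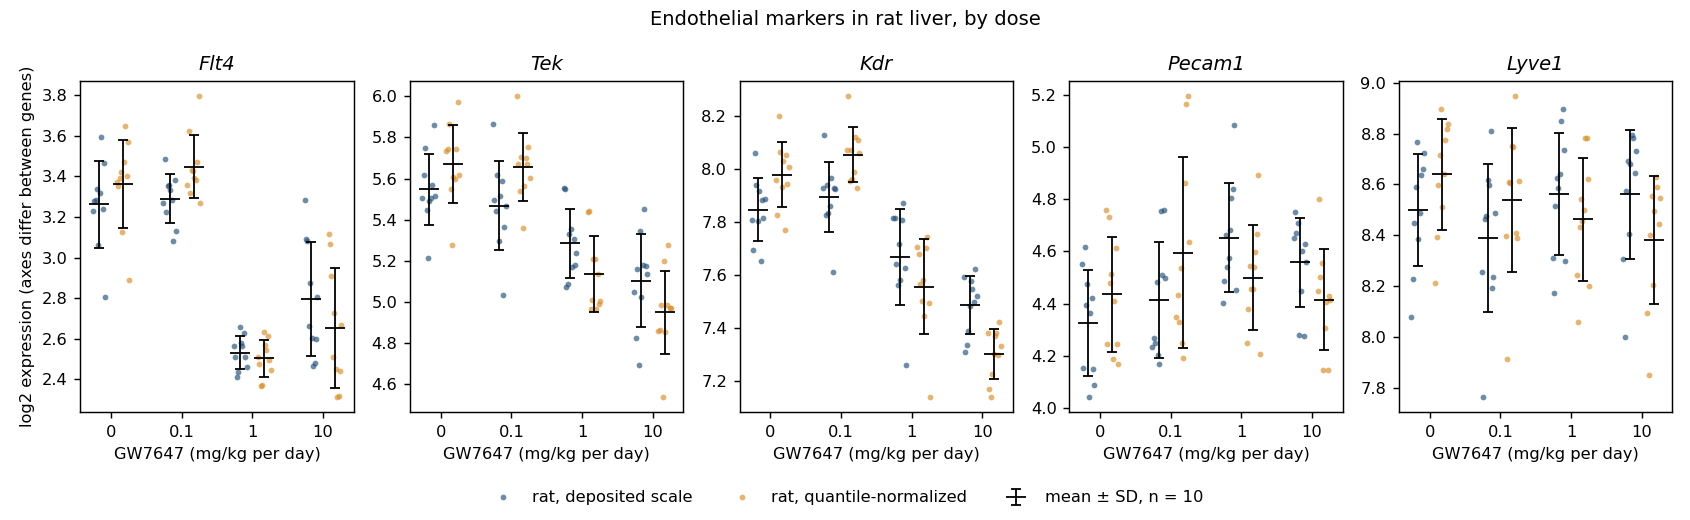
Log2 expression of the 5 endothelial genes (y axes differ between genes) in each rat by dose of GW7647 (x axis, mg/kg per day), on the deposited scale (blue) and after quantile normalization (orange), with mean ± SD of 10 rats. Kdr at 10 mg/kg and Flt4 at 1 mg/kg lie wholly below the vehicle rats, while the groups overlap for Pecam1 and Lyve1.

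Pecam1, the junctional adhesion molecule CD31 that most endothelial cells carry, was not called on both scales at any dose. Vehicle rats ran from 4.04 to 4.62 with a median of 4.38, and rats at 0.1 mg/kg from 4.17 to 4.76 with the same median. The range was 4.40 to 5.08 (median 4.62) at 1 mg/kg, and the top dose gave 4.28 to 4.75 (median 4.61). On the deposited scale these groups overlap, and 5 of 10 rats exceeded the vehicle range at each of the upper doses. The deposited-scale changes were 0.33 (limma adjusted p = 0.00361) at 1 mg/kg and 0.23 (adjusted p = 0.0236) at 10 mg/kg, and after quantile normalization they were 0.06 (adjusted p = 0.725) and -0.02 (adjusted p = 0.9). The deposited changes sit beside medians of all genes of 0.16 and 0.26.

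Lyve1, a hyaluronan receptor that lymphatic vessels and liver sinusoids share, lay at the 95.5th percentile on vehicle arrays. Vehicle values ran from 8.08 over a median of 8.54 to 8.77, and those at 0.1 mg/kg from 7.76 over 8.47 to 8.81. The 1 mg/kg rats gave 8.17, 8.61 and 8.90 as lowest, median and highest value, and the 10 mg/kg rats 8.0, 8.66 and 8.80. As deposited, the 4 groups overlapped over nearly their whole range. After quantile normalization 10 of 10 rats at the top dose lay below the vehicle median and 3 below the lowest vehicle rat. At 10 mg/kg the change was 0.06 on the deposited scale (95% confidence interval -0.16 to 0.28, limma adjusted p = 0.648) and -0.26 after quantile normalization (-0.48 to -0.04, adjusted p = 0.0507), so a fall of the size that Kdr showed on either scale (0.36 and 0.67) lies outside the interval on that scale. The second Lyve1 probe set changed by -0.07 (adjusted p = 0.543) on the deposited scale and by -0.39 (adjusted p = 0.000723) after quantile normalization. Neither probe set was called on both scales.

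Ratios of 2 members on the same array do not depend on a shift of the whole array, and they show whether the 2 changed unequally, though not which of them moved. Changes of 9 ratios at 3 doses were tested, 27 in all, by two-sided permutation tests with 100000 resamples and Benjamini-Hochberg adjustment over the 27. The log2 ratio of Kdr over Lyve1 was 0.42 lower at 10 mg/kg than in vehicle rats (SE 0.10, p = 0.00116, adjusted p = 0.00425), with 9 of 10 rats below the vehicle median. With the second Lyve1 probe set in its place the ratio was 0.29 lower (p = 0.00772). The ratio of Tek over Lyve1 changed by -0.50 at 10 mg/kg (adjusted p = 0.00425; 10 of 10 rats below the vehicle median), and that of Flt4 over Lyve1 by -0.79 at 1 mg/kg (adjusted p = 0.00054; 10 of 10 rats). Flt4 over Lyve1 at 10 mg/kg changed by -0.53, past the threshold on the deposited scale (adjusted p = 0.0411) and not after quantile normalization (adjusted p = 0.0822). At 1 mg/kg the ratios of Kdr and of Tek over Lyve1 did not pass (-0.24 and -0.33, both adjusted p = 0.0809), nor did Pecam1 over Lyve1 at any dose.

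**Figure D3:**
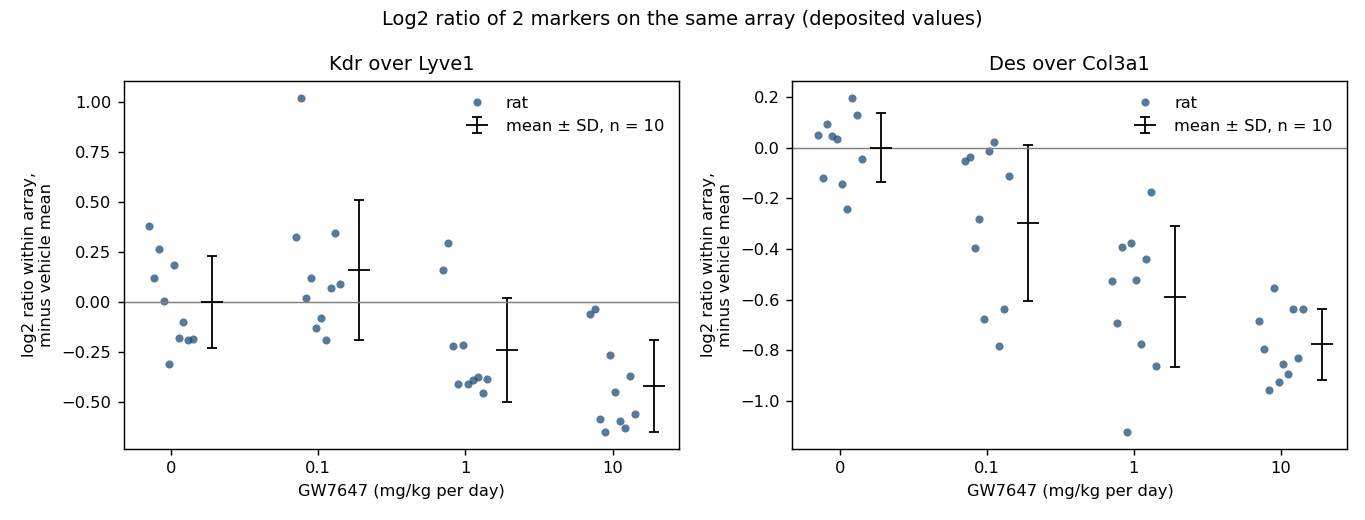
Log2 ratio of Kdr over Lyve1 (left) and of Des over Col3a1 (right) on each array, less the vehicle mean (y axis), by dose of GW7647 (x axis, mg/kg per day), with mean ± SD of 10 rats. At 10 mg/kg every Kdr over Lyve1 ratio lies between -0.65 and -0.03, and every Des over Col3a1 ratio between -0.96 and -0.55, below all vehicle rats for the latter.

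Among the collagen genes, Col1a1, a chain of type I collagen and the usual index of stellate cell activation, rose at 10 mg/kg by a margin that depends on the scale. Its lowest, median and highest values were 2.76, 3.13 and 3.58 on vehicle arrays (mean 3.14 ± 0.27, SD, n = 10) and 2.61, 2.96 and 3.73 at 0.1 mg/kg. They were 2.88, 3.32 and 3.90 at 1 mg/kg, while the 10 mg/kg rats gave 2.84, 3.84 and 4.04. Of 10 rats at the top dose 7 exceeded the highest vehicle rat and 1 lay near the bottom of the vehicle range. The rise was 0.59 on the deposited scale (SE 0.14, limma adjusted p = 0.000512) and 0.35 after quantile normalization (SE 0.13, adjusted p = 0.0297). Leaving out 1 array ended the quantile-normalized call in 9 of 40 cases, with a highest adjusted p of 0.0601 (without vehicle replicate 6; the others were vehicle replicates 2, 9 and 10 and 10 mg/kg replicates 4, 5, 6, 7 and 9). The call also ended with scaling to the hybridisation controls (0.35, adjusted p = 0.0686), with the poly-A control level as a covariate after quantile normalization (0.24, adjusted p = 0.297) and in the test against 1.2-fold (adjusted p = 0.0586). The second Col1a1 probe set changed by 0.27 (adjusted p = 0.00909) on the deposited scale but by 0.04 (adjusted p = 0.727) after quantile normalization. The level is low, at the 60.6th percentile of probe sets in vehicle rats and the 64.3rd at 10 mg/kg. From 1 to 10 mg/kg Col1a1 was past the threshold as deposited only, and on both scales without any 1 of 4 arrays (0.1 mg/kg replicates 4 and 5, 1 mg/kg replicate 3 and 10 mg/kg replicate 8).

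Col3a1, the chain of type III collagen that forms the reticular fibres of the sinusoids, was among the brighter probe sets, at the 95.6th percentile. Vehicle values ran from 8.28 over a median of 8.50 to 8.96, and those at 0.1 mg/kg from 8.47 over 8.64 to 8.82. Rats at 1 mg/kg ranged from 8.70 to 9.18 (median 8.89), and the top dose gave 8.68 to 9.30 (median 8.96). On the deposited scale 0 rats at 1 or 10 mg/kg lay below the vehicle median, and 4 and 5 of 10 exceeded the vehicle range. The deposited changes of 0.39 and 0.46 (limma adjusted p = 8.64e-05 and 3.29e-06) shrank to 0.16 and 0.14 after quantile normalization (adjusted p = 0.142 and 0.155), so Col3a1 is not called on both. Without vehicle replicate 7 it was, at 1 mg/kg (0.44 and 0.20, adjusted p = 8.21e-06 and 0.0454) and at 10 mg/kg (0.50 and 0.18, adjusted p = 2.33e-07 and 0.0452). Col1a1 and Col3a1 did not differ in response past the threshold at any dose: the change of their ratio at 10 mg/kg was 0.13 (SE 0.11, adjusted p = 0.349).

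Dcn, decorin, a collagen-binding proteoglycan of the matrix, was the most variable member and was called at no dose. Vehicle rats ranged from 2.90 to 5.22 (median 3.80), rats at 0.1 mg/kg from 2.97 to 4.81 (median 3.93) and rats at 1 mg/kg from 2.61 to 4.19 (median 3.53). The top dose gave 3.25, 3.86 and 6.45 as lowest, median and highest value. The groups overlapped throughout, and 1 rat at 10 mg/kg lay far above the rest. The SD within groups was 0.71, at the 99.2nd percentile of genes, against 0.14 for Kdr at the 10.9th, so the change of Dcn at 10 mg/kg carries a wide interval (0.31, 95% confidence interval -0.30 to 0.92). The ratio of Dcn over Col3a1 was 0.80 lower at 1 mg/kg (adjusted p = 0.0411; 10 of 10 rats below the vehicle median).

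**Figure D4:**
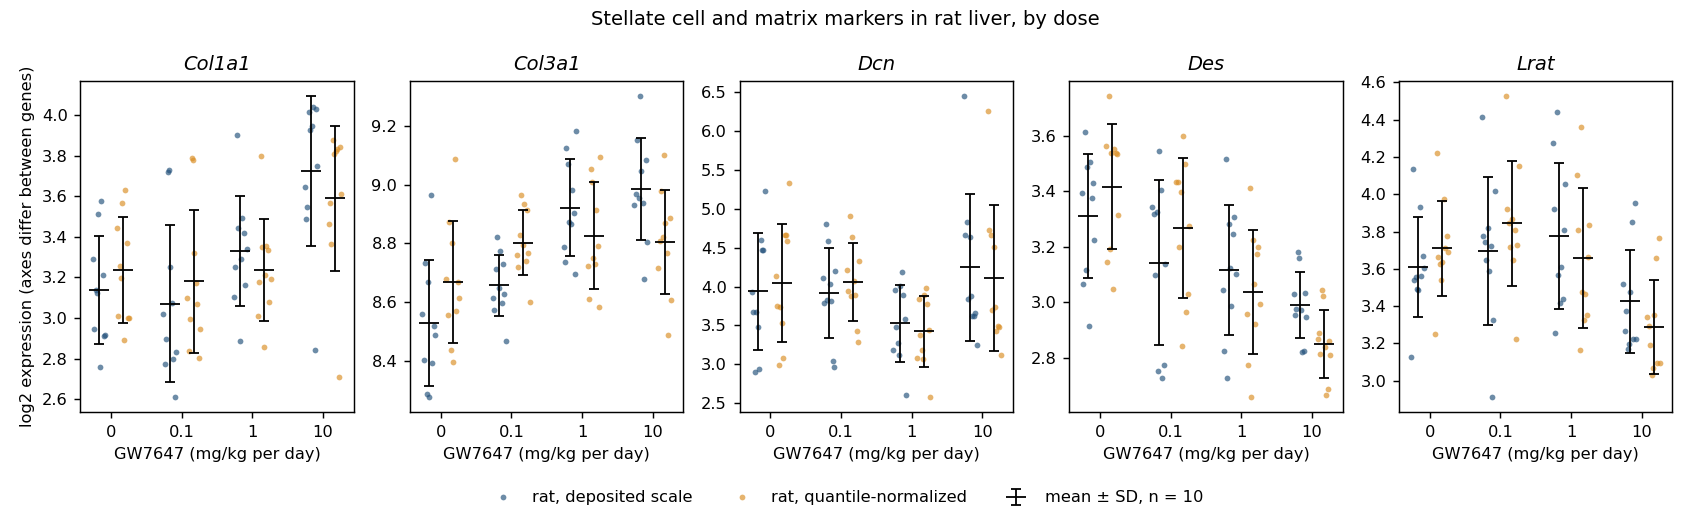
Log2 expression of the 5 stellate cell and matrix genes (y axes differ between genes) in each rat by dose of GW7647 (x axis, mg/kg per day), on the deposited scale (blue) and after quantile normalization (orange), with mean ± SD of 10 rats. The Des rats at 10 mg/kg (2.82 to 3.18 on the deposited scale) lie low in the vehicle range, Col1a1 rats mostly above it, and Dcn rats spread widely in every group.

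Des, desmin, the intermediate filament that marks quiescent and activated stellate cells in rat liver, fell at 10 mg/kg while neither matrix collagen fell. Its lowest, median and highest values were 2.91, 3.38 and 3.61 on vehicle arrays (mean 3.31 ± 0.22, SD, n = 10) and 2.73, 3.23 and 3.54 at 0.1 mg/kg. They were 2.73, 3.11 and 3.51 at 1 mg/kg, while the 10 mg/kg rats gave 2.82, 2.98 and 3.18. All 10 rats at 10 mg/kg lay below the vehicle median, and after quantile normalization they lay below every vehicle rat, as 3.79% of all genes did. Des fell by 0.32 on the deposited scale (SE 0.10, limma adjusted p = 0.00549) and by 0.57 after quantile normalization (SE 0.09, adjusted p = 4.75e-06). These are low levels too, with group means at the 62.6th percentile of probe sets in vehicle rats and the 55.9th at 10 mg/kg. At 1 mg/kg Des was past the threshold after quantile normalization (-0.38, adjusted p = 0.0029) but not as deposited (-0.20, adjusted p = 0.113). The ratio of Des over Col3a1 was lower by 0.59 at 1 mg/kg and 0.78 at 10 mg/kg (both p = 4e-05, adjusted p = 0.00054), in 10 of 10 rats at each dose. At 0.1 mg/kg it was lower by 0.30 (p = 0.0116, adjusted p = 0.0348; 10 of 10 rats); without the 2 arrays of low upper quartile the difference was -0.19 (p = 0.0466, unadjusted). Muscle also makes desmin. Of 10 measured muscle genes Tagln (0.76) and Ckm rose and Myl9 (-0.57) fell at 10 mg/kg, beside 20.4% and 7.69% of all genes. The part of muscle in the fall of Des was not tested.

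Lrat, the enzyme that esterifies retinol for storage in stellate cells, was not called on both scales at any dose. Vehicle rats ran from 3.13 to 4.13 with a median of 3.56, and rats at 0.1 mg/kg from 2.91 to 4.41 with a median of 3.73. The range was 3.25 to 4.44 (median 3.71) at 1 mg/kg, and the top dose gave 3.17 to 3.95 (median 3.32). All groups overlapped, with 8 of 10 rats at the top dose below the vehicle median. The change at 10 mg/kg was -0.18 on the deposited scale (limma adjusted p = 0.271) and -0.42 after quantile normalization (adjusted p = 0.00972). From 1 to 10 mg/kg the change was -0.35 as deposited (adjusted p = 0.0629) and -0.37 after quantile normalization (adjusted p = 0.0499). This step was past the threshold on both scales without the 2 arrays of low upper quartile (adjusted p = 0.0373 and 0.0376), and without any 1 of 7 arrays (0.1 mg/kg replicates 1 and 8, 1 mg/kg replicates 3, 6 and 8, and 10 mg/kg replicates 7 and 9). On the same arrays Lrat over Col3a1 was lower by 0.64 at 10 mg/kg against vehicle (SE 0.14, permutation p = 0.00032, adjusted p = 0.00144). Kdr over Col3a1 was lower than in vehicle rats by 0.57 at 1 mg/kg (adjusted p = 0.00144) and 0.81 at 10 mg/kg (adjusted p = 0.00054). In each of these comparisons 10 of 10 rats lay below the vehicle median.

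Within dose groups, 1 pair of members varied together past the threshold. Over the 40 arrays, after the group means were subtracted from quantile-normalized values, Pearson r over the 45 pairs ran from -0.46 to 0.59, each with a permutation p adjusted over the 45. The pair was Col1a1 and Col3a1 (r = 0.59, p = 7e-05, adjusted p = 0.00315; Spearman's rho = 0.57, p = 0.00015, adjusted p = 0.00675), and r was 0.51 without the 2 arrays farthest from the median. Flt4 with Lyve1 (r = -0.46, adjusted p = 0.0673) and Tek with Col1a1 (r = -0.46, adjusted p = 0.0687) did not pass. Among 5343 genes with a mean at log2 5 or more, Col3a1 varied most like Bgn (r = 0.67), Col1a2 (0.64) and Igfbp7 (0.59), which encode a matrix proteoglycan, the other type I collagen chain and a secreted binding protein of vessels and matrix. Kdr varied most like Ifngr1 (r = 0.61), Gstp1 (0.59) and Chchd2l3 (0.57), Tek like Cops5 (0.67), Nit2 (0.66) and Irak2 (0.65), and Lyve1 like Celf1 (0.82), Zkscan3 (0.81) and Hnrnpa0 (0.80), all over 40 arrays that share processing and scale. None of the listed endothelial markers is among the nearest 3 of Kdr, Tek or Lyve1.

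Of 7 measured ligand genes, Vegfb and Pgf rose and Angpt2 fell at 10 mg/kg. Over all genes, 20.4% rose and 7.69% fell on both scales at that dose. Vegfb, which binds the FLT1 receptor and is made by tissues that burn fatty acids, averaged 4.41 ± 0.35 in vehicle rats (range 3.99 to 4.87), 4.52 ± 0.39 at 0.1 mg/kg and 5.67 ± 0.31 at 1 mg/kg. The top dose gave 6.07 ± 0.20 (range 5.77 to 6.45; SD, n = 10). It rose by 1.66 on the deposited scale (limma adjusted p = 3.5e-13), where the median change of all genes was 0.26. Vegfa changed by 0.43 as deposited and by 0.12 after quantile normalization (adjusted p = 0.327), and Vegfc, a ligand of FLT4, by -0.11 (adjusted p = 0.335) and -0.41 (adjusted p = 0.000508). Among 5 other receptor genes and partners (Flt1, Nrp1, Nrp2, Tie1, Ptprb), Tie1, the receptor kinase related to Tek, fell by 0.66 (adjusted p = 5.68e-05) from a vehicle mean of 4.30 ± 0.33, and no other passed on both scales at 10 mg/kg. Tie1 and the other genes of these lists with group means below log2 5, and those given without a call, were named after their values were seen.

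Of 18 measured markers of vascular endothelium in general, 7 fell at 10 mg/kg, beside 7.69% of all genes. Rises numbered 0, beside 20.4% of all genes, and 0 also at an unadjusted p under 0.05 in limma. Median changes were -0.11 as deposited and -0.39 after quantile normalization, against 0.26 and -0.02 over all genes. The 5 endothelial members had medians of -0.36 and -0.67. Those that fell were Plvap (-0.88), Esam (-0.56), Clec14a (-0.54), Sox17 (-0.45), the sphingosine-1-phosphate receptor S1pr1 (-0.40), Icam2 (-0.27) and Mmrn2 (-0.27). At 1 mg/kg 1 of the 18, Sox17, fell (-0.53), beside 3.37% of all genes. Of 11 measured markers that are enriched in sinusoidal endothelium, the mannose receptor Mrc1 fell by 0.68 and F8, coagulation factor VIII, rose by 0.61 at 10 mg/kg. In which cells Mrc1 fell was not tested. Of 10 macrophage markers 9 fell at that dose, beside 7.69% of all genes. Cd36, a fatty acid carrier that hepatocytes under PPAR-alpha agonists also make, rose by 2.78; the hyaluronan scavenger receptor Stab2 changed by 0.15 and -0.16 (adjusted p = 0.254 and 0.282), and Stab1 by -0.15 (adjusted p = 0.25) and -0.43 (adjusted p = 0.00281). In the lymphatic list of 5 genes only dim Pdpn changed on both scales at 10 mg/kg, upwards.

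Among 20 other measured stellate cell genes, the growth factor receptor Pdgfra (-0.49), Pth1r (-0.25) and Colec11 (-0.15) fell at 10 mg/kg, and dim Nes rose. These are 3 and 1 of 20, beside 7.69% and 20.4% of all genes. Their list had median changes of -0.03 as deposited and -0.26 after quantile normalization. The activation marker Acta2 changed by 0.25 as deposited and by 0.01 after quantile normalization (adjusted p = 0.937). Of 14 other collagen chains, Col4a2 of basement membranes rose (0.65) and Col16a1 fell (-1.18), and the list's median was 0.27 as deposited and 0.02 after quantile normalization. Of 25 matrix and collagen processing genes, 5 rose and 3 fell, close to the shares over all genes of 20.4% and 7.69%. The rises included the basement membrane genes Nid1 (0.89) and Lamc1 (0.79) and the collagen chaperone Serpinh1 (0.79), and the falls included the collagen crosslinking enzyme Lox (-1.40). Of 17 proteases, inhibitors and profibrotic signals, 1, Spp1, fell (-0.64), beside 7.69% of all genes. Rises numbered 0, beside 20.4%, also at an unadjusted p under 0.05 in limma.

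Genes of retinoid handling, the pathway to which Lrat belongs, changed in both directions, 7 up and 4 down of 16 at 10 mg/kg, beside 20.4% and 7.69% of all genes. Lpl, lipoprotein lipase, rose by 3.86, the retinal dehydrogenase Aldh1a1 by 3.41 and Dgat1, an acyltransferase that can also esterify retinol, by 1.38. The retinol dehydrogenase Rdh10 fell by 0.56. Dgat1 and Lpl also act in hepatocyte triglyceride metabolism, so this list is not one of stellate cells alone.

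**Figure D5:**
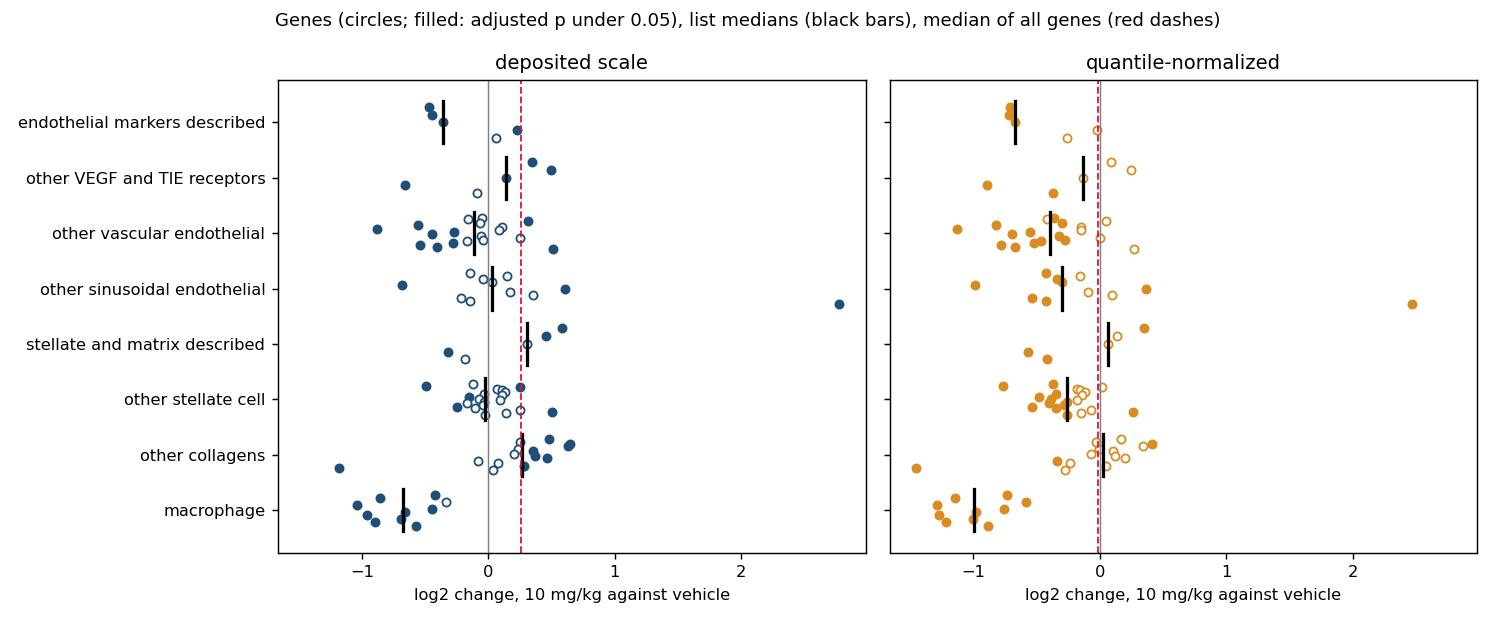
Log2 change at 10 mg/kg against vehicle (x axis) of each gene in 8 lists (rows), on the deposited scale (left) and after quantile normalization (right), filled where the adjusted p was under 0.05, with list medians (black) and the median of all genes (red dashes). The endothelial members and the macrophage markers have the lowest medians of the 8 lists on both panels, -0.36 and -0.67 on the deposited scale and -0.67 and -0.99 after quantile normalization.

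Markers of liver macrophages (Kupffer cells) also fell. Of 10 measured, 9 fell at 10 mg/kg, beside 7.69% of all genes. At 1 mg/kg 4 fell (Clec4f, Cd163, C1qb and C1qc), beside 3.37%. Median changes at the top dose were -0.67 as deposited and -0.99 after quantile normalization. The Kupffer cell lectin Clec4f fell by 0.86, Cd5l by 0.90 and C1qb by 0.96. The mean log2 level of the list ranged from 7.08 to 7.83 over vehicle rats, 7.25 to 7.86 at 0.1 mg/kg, 6.81 to 7.92 at 1 mg/kg and 6.27 to 7.36 at 10 mg/kg, and no marker is listed at 0. The same mean over 9 hepatocyte markers ran from 12.38 to 12.54 in vehicle rats and from 12.33 to 12.48 at 10 mg/kg. Of these markers 2 of 9 fell (Serpina1 and Cps1, by 0.14 and 0.15), beside 7.69% of all genes. Their median changes at 10 mg/kg were -0.02 as deposited and -0.18 after quantile normalization, beside 0.26 and -0.02 over all genes. After quantile normalization 8 of 9 were below 0. Signs of RNA handling moved with dose too. Against vehicle, the mean of the poly-A controls was 0.65 higher at 1 and 0.99 higher at 10 mg/kg. The mean actin signal at the 3′ end over the 5′ end was 0.33 and 0.45 higher. The 1 mg/kg group was split in its poly-A level: replicates 1 to 4 reached at most 5.70. Its replicates 5 to 10 had at least 6.34. Vehicle rats averaged 5.57, with a highest value of 6.50. The part of these in the members' changes was not tested.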

How the data were processed

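The deposited values are log2 units, 1 per probe set and array. The authors made them with GCRMA, and Partek is also named, per the submitters' processing notes. Neither the versions nor whether all groups were normalized in 1 run is given in the sources used here, so run and dose cannot be told apart. GCRMA subtracts a sequence-dependent background, which leaves dim probe sets close to a floor. Values were used as deposited and again after quantile normalization in limma.

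Of 31139 probe sets, 19063 had 1 symbol, 572 several and 11504 none (97 controls among them); 18989 were matched by Entrez number to a RefSeq table (GRCr8, names only). Each of 13438 genes was represented by its brightest probe set (highest mean of the 40 arrays). limma 3.58.1 (R 4.3.3) fitted 4 group means to all arrays with 36 residual degrees of freedom, and its p-values were Benjamini-Hochberg adjusted over all genes (adjusted p). Arrays have no read depth; their number limits precision. The fit was tested on simulated data. Permutation tests used scipy 1.17.1 and figures matplotlib 3.10.9 (Python 3.11.15).

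All members are named, and of other lists up to 4 genes past the threshold on both scales whose higher group mean reached log2 5 and with the largest changes at 10 mg/kg; others were named after their values were seen. Members and lists, and the use of both scales, were chosen with earlier results of these data known. The labels state no pairing of rats by replicate number, so the number was used only as an alternative block. Over the 6 pairs of groups, 1 to 5 of 10 same-numbered pairs correlated above 0.1. Between 1 and 10 mg/kg the median correlation was 0.156 for same-numbered pairs, beside -0.022 for other pairs. Alternatives were other scalings, filters, priors, weights, probe set choices, a poly-A covariate, a replicate block, a test against 1.2-fold and sets of arrays. Fits without the 2 arrays of low upper quartile, fits without any 1 array and the replicate block after quantile normalization were chosen after seeing the data.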

Additional observations from a re-analysis of the deposited data

Results flagged for a closer look

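In 52 groups of 10 values (13 probe sets in 4 groups), 3 had a rat whose gap to the next, over the range of the group, exceeded Dixon's 95% critical value; chance flags about 1 in 20 groups. Kdr in 1 mg/kg replicate 10 was the lowest of its group at 7.26, with the next at 7.56 (ratio 0.493). The deposited-scale call of Kdr at 1 mg/kg is lost without this rat. Its array had the highest signal at the 3′ end over the 5′ end of any array, 4.42 for actin and 1.53 for GAPDH. Vehicle means were 2.78 and 0.41. The part of RNA quality in this Kdr value was not tested. Col1a1 in 10 mg/kg replicate 8 was the lowest at 2.84, with the next at 3.49 (ratio 0.539). Dcn in 10 mg/kg replicate 1 was the highest at 6.45, with the next at 4.82 (ratio 0.509).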

How the results depend on the processing

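On the deposited scale 0, 5 and 7 members were called at 0.1, 1 and 10 mg/kg against vehicle, 4 from 0.1 to 1 mg/kg, 3 from 1 to 10 mg/kg and 7 by the F test over doses. Of 750 alternative values of the members' changes, 631 kept direction and side of the threshold or passed it in neither fit (62 of these changed sign), 74 lost the call, 28 gained one and 17 changed sign. Flt4 stayed past the threshold at 1 and 10 mg/kg in 15 of 15 and 13 of 13 alternatives. Tek and Des at 10 mg/kg lost it only in the test against 1.2-fold. At 1 mg/kg Tek stayed past it in 15 of 17 alternatives and Kdr in 13 of 17. Unless given, the cause was not tested.

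Scaling to hybridisation controls gave 4 members at 10 mg/kg, 2 from 0.1 to 1, 0 from 1 to 10 and 4 over doses. Of all 13438 genes it called 4022, 2111, 1151 and 4453 there, beside 8626, 6504, 4109 and 9538 in the main fit. The filter on level left 4 members to test. As deposited this lowered the counts to 3 at 1 mg/kg, 3 at 10 mg/kg, 2 and 1 in the steps and 3 over doses. Of all 5810 genes left, 3175, 3881, 3589, 1422 and 4200 were called. After quantile normalization the counts were 2, 3, 2, 1 and 2, beside 1588, 3104, 1243, 1244 and 3002 of 5695 genes. The test against 1.2-fold gave 1 and 2 members at 1 and 10 mg/kg, 1 from 0.1 to 1 and 0 from 1 to 10 mg/kg. Of all genes it called 914, 3153, 1137 and 264. Keeping from the 1 mg/kg group only arrays 1 to 4 gave 2 at 1 mg/kg, 2 from 0.1 to 1 and 0 from 1 to 10. The counts over all genes were 3620, 4274 and 1993. At 1 mg/kg Flt4 and Col3a1 passed there, but Kdr (-0.14, limma adjusted p = 0.195) and Tek (-0.23, adjusted p = 0.171) did not. With the same arrays after quantile normalization Flt4, Tek, Kdr and Des passed, so only Flt4 passed on both scales. The poly-A covariate after quantile normalization gave 1 from 1 to 10 and 4 over doses, beside 2483 and 5000 of all genes. Leaving out 1 array gave 0 to 0, 4 to 5, 6 to 7, 3 to 5, 1 to 4 and 6 to 7 members; the count of 1 from 1 to 10 mg/kg was without 1 mg/kg replicate 1.

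Pecam1 changed sign at 1 mg/kg with the poly-A covariate (-0.0053) and with arrays 1 to 4 after quantile normalization (-0.027). At 10 mg/kg it did with quantile normalization (-0.020, also without the arrays of low upper quartile and with a replicate block), equal medians (-0.0061), hybridisation controls (-0.0011) and the covariate (-0.126). From 0.1 to 1 mg/kg it did with quantile normalization (-0.095, also with a replicate block), the covariate (-0.136) and arrays 1 to 4 (-0.187). Lyve1 at 10 mg/kg was called lower after quantile normalization with the filter or with a replicate block (-0.259, adjusted p = 0.0436 and 0.00567) and with the covariate (-0.382, adjusted p = 0.0271). Averaging the bright and the dim Kdr probe set gave 0.042 at 10 mg/kg and 0.097 from 1 to 10 mg/kg. With the replicate block on the deposited scale 0, 5 and 7 members were called against vehicle, 4 and 2 in the steps and 6 over doses. Of all genes 14, 5653, 8658, 6559, 4110 and 9570 were called. Kdr lost its call from 1 to 10 mg/kg.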

Other observations

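Markers of other cell types in liver were read the same way at 10 mg/kg, where 20.4% of all genes rose and 7.69% fell. Of 7 bile duct genes, Epcam (1.26), Anxa4 (0.76) and Sox9 (0.45) rose. Of 4 liver capsule genes, Krt8 (0.73), which hepatocytes also make, and Wt1 (0.48), at a low level, rose. Alas2, the 1 measured gene of red cell precursors, rose by 0.67. Of 8 lymphocyte genes limma called 0 on both scales, and 1 at an unadjusted p under 0.05. Their median changes were -0.02 as deposited and -0.28 after quantile normalization.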
